A study of Mus musculus with 6 samples.

Results

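The genes described here are 36 members of the TGF-beta and BMP signalling pathways, chosen by gene symbol from the deposited expression table and not by any measured value. All 36 had a row among the 30862 gene rows, and all 36 were among the 17186 genes that passed the filter on low counts. By role they were 6 ligands, 5 proteins of ligand latency and processing, 8 receptors, 6 signal SMADs, 6 feedback proteins and nuclear repressors, 3 target genes and 2 secreted antagonists.

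RNA was sequenced from 3 cultures given polystyrene microplastic particles (PS-MP, 100 nm, sonicated, 750 µg/mL for 24 h) and from 3 control cultures (0 µg/mL). Both groups were primary cells labelled as ovarian granulosa cells, which are the somatic cells around the oocyte. They came from 21-day-old female ICR mice, were released from the ovaries by enzyme digestion and had adhered for 12 h before exposure. No genotype, mutant allele or transgene is named in the labels, which mark the control treatment as WT. The labels give biological replicate numbers 1, 2 and 3 in each group but do not say whether they stand for separate animals, pools or cultures. The p-values hence measure only how these libraries spread, and part of that spread may be technical.

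TGF-beta ligands are secreted as latent complexes, most of them tethered to the matrix by latent TGF-beta binding proteins (LTBPs). Once freed, a ligand brings type I and type II receptor kinases together, and the type I receptor phosphorylates receptor SMADs, classically SMAD2 and SMAD3 for TGF-beta and activin and SMAD1, SMAD5 and SMAD9 for BMPs. These bind SMAD4, enter the nucleus and switch on target genes, among them their own inhibitors SMAD6 and SMAD7. In the ovary, members of this superfamily pass signals between oocyte, granulosa and theca cells during follicle growth.

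The libraries held 61307867 to 70240738 estimated counts in the PS-MP group and 56967176 to 63807940 in the control group, and FPKM (fragments scaled to transcript length and to the library's mapped reads) summed to 284964 to 290681 in PS-MP and to 274177 to 283405 in control libraries. The labelled cell type was only partly matched by its markers. Foxl2, a transcription factor of granulosa cells, lay at 0.0727 to 0.144 FPKM in PS-MP and 0.0577 to 0.204 in control libraries, and 6 of 9 granulosa markers in the table were under 1 FPKM in every library. The other 3 were Inhba, the activin and inhibin beta A subunit, at 87.5 to 133 FPKM with PS-MP and 109 to 146 in control, the gap junction gene Gja1 at 10.2 to 11.7 with PS-MP and 9.34 to 11.3 in control, and the inhibin alpha gene Inha at up to 1.20 with PS-MP and up to 1.09 in control. Fshr and Cyp19a1 were not analysed here. Markers of pericytes and smooth muscle summed to 2464 to 3686 FPKM in PS-MP and 2724 to 3502 in control libraries. The libraries numbered 1 stood apart in both groups: the 8 surface epithelium markers summed to 33.0 FPKM in PS-MP 1 and 28.8 in control 1, against 4.10 to 10.5 in the other PS-MP and 4.12 to 10.6 in the other control libraries. In RNA from whole cultures, fewer cells of a type and less RNA per cell cannot be told apart.

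No member passed the test between PS-MP and control cultures. Of the 36 members, 0 were called by edgeR's quasi-likelihood test with treatment as the only term (adjusted p under 0.05 and at least 1.5-fold). The background was 0.0% (0 of 17186 genes), and the lowest adjusted p of any gene was 1.00. Without adjustment, 0 members reached a p under 0.05, against 1.32% of all tested genes, while DESeq2 called 0 members and 1 gene. With the replicate number as a block in the edgeR fit, 2 members reached it, against 4.94% of all tested genes, and no member was called. On log2 CPM (counts scaled to library size) no member had groups that did not overlap, a pattern seen in 6.21% of tested genes. The median log2 fold change of the members, PS-MP over control, was -0.03, beside 0.00 over all tested genes, with 16 members positive and 20 negative. By role the median was -0.07 in ligands, 0.03 in latency and processing, -0.06 in receptors, 0.02 in signal SMADs, -0.04 in feedback genes and repressors, 0.02 in target genes and 0.05 in antagonists. The 95% interval of the fold change lay within 1.5-fold in both directions for 26 members, and for 33 once the replicate number was taken into the fit. Over all 17186 tested genes these counts were 9822 and 11288. Among the 9324 genes with a mean of at least 10 CPM they were 8554 and 9211.

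**Figure D1:**
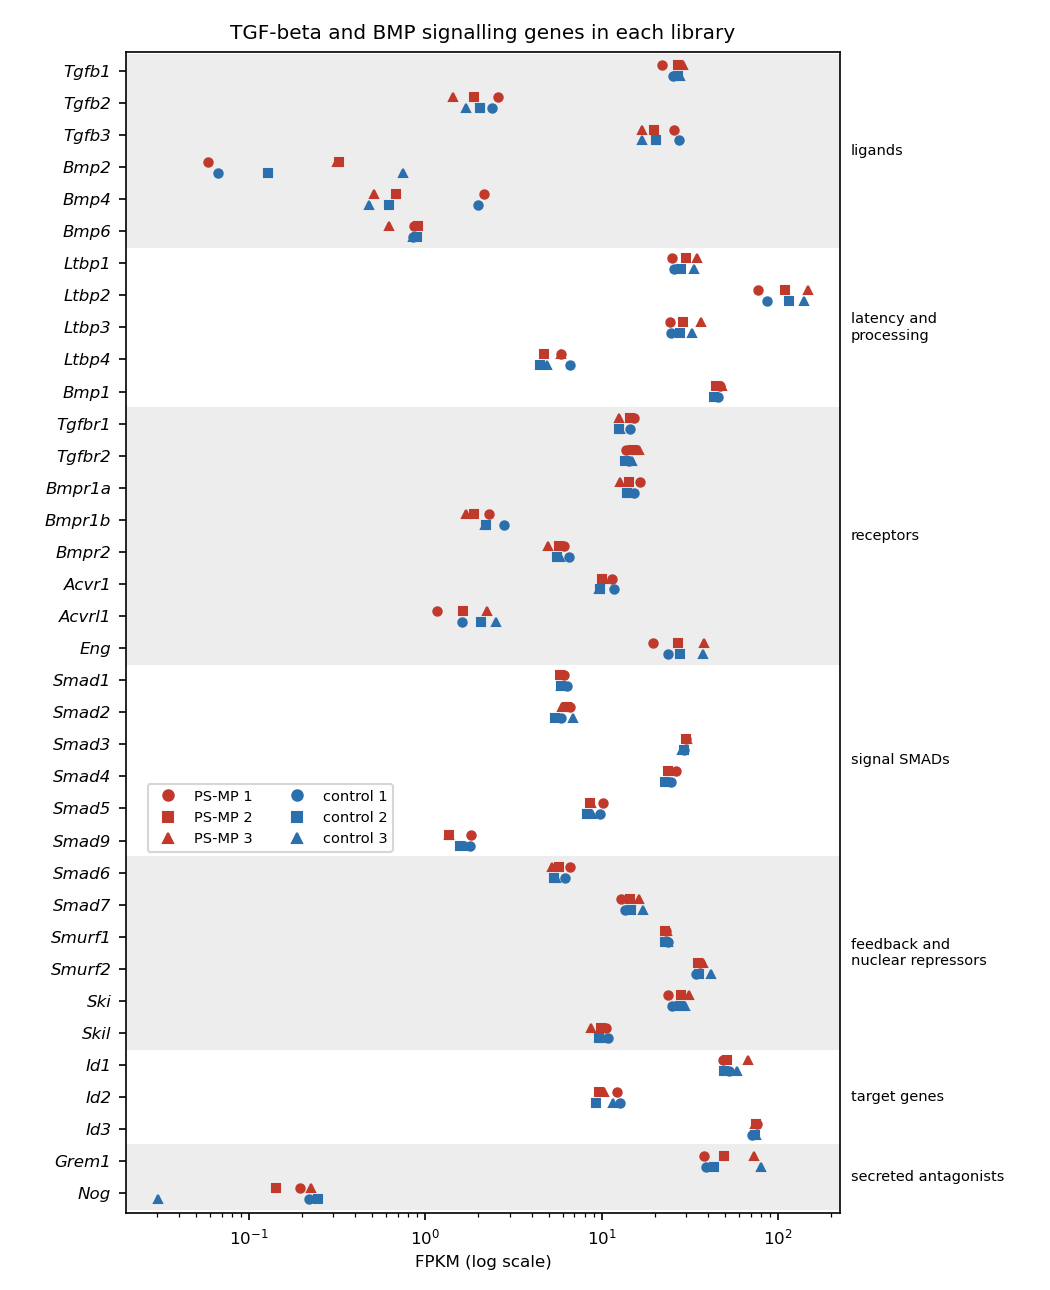
FPKM (log scale) of each of the 36 genes in each library, PS-MP above control within a row, with replicate numbers shown by marker shape and roles at the right. Levels ran from 0.0307 FPKM for Nog to 146 FPKM for Ltbp2, and same-shaped markers of the 2 groups lie near each other for Bmp4, Grem1, Ltbp2, Eng and Tgfb3.

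**Figure D2:**
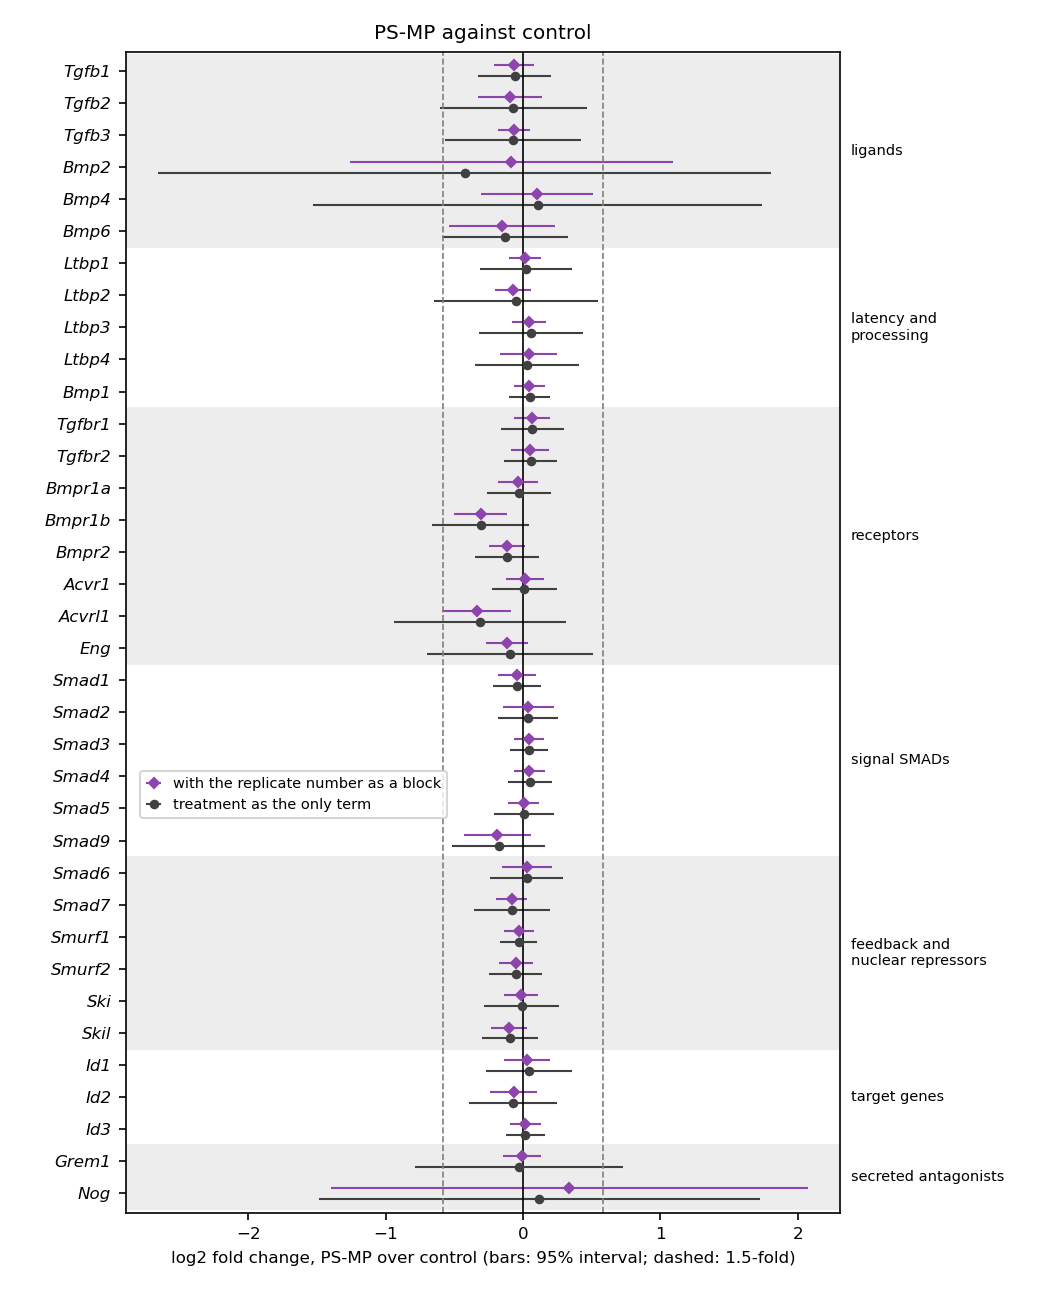
Log2 fold change of PS-MP over control for each of the 36 genes with its 95% interval, from the fit with the replicate number as a block (diamonds) and the fit with treatment alone (circles). Dashed lines mark 1.5-fold. Point estimates with treatment alone ran from -0.43 for Bmp2 to 0.12 for Nog.

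More members were called for replicate number than for treatment. The replicate number was tested because most variation of the table was already known to follow it. Tested with treatment in the same edgeR fit, the replicate number was called for 12 of 36 members at an adjusted p under 0.05 (33.3%), where 14.9% of all tested genes were called. Of these 12, 9 were higher in number 3 than in number 1, a direction called in 8.38% of all tested genes, and 3 were lower in number 3, called in 6.56%. High expression goes with more calls: in this fit 1991 of the 9324 genes with a mean of at least 10 CPM were called. In a separate fit and adjustment over those genes alone, 25.5% were called, beside 11 of the 30 members in that range. Of these 11, 9 were also called in the fit over all tested genes, and Id1 and Id2 were gained. The median share of a member's variance between libraries was 76.2% for replicate number and 5.53% for treatment, beside 61.0% and 7.54% over all tested genes. Among genes with a mean of at least 10 CPM the shares were 69.4% and 5.99%. Replicate number takes 2 terms and treatment a single one, so the shares of the factors are not directly comparable. Fewer members were called when either number 1 library was left out, and the same was true over all tested genes. Tgfb3, Bmp4, Ltbp2, Eng and Grem1 were called under each of the 13 alternatives that tested them (Bmp4 was below the filter at 10 CPM). By role the calls were 4 of 6 ligands, 3 of 5 latency and processing genes, 2 of 8 receptors, 0 of 6 signal SMADs, 2 of 6 feedback genes and repressors, 0 of 3 target genes and 1 of 2 antagonists.

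**Figure D3:**
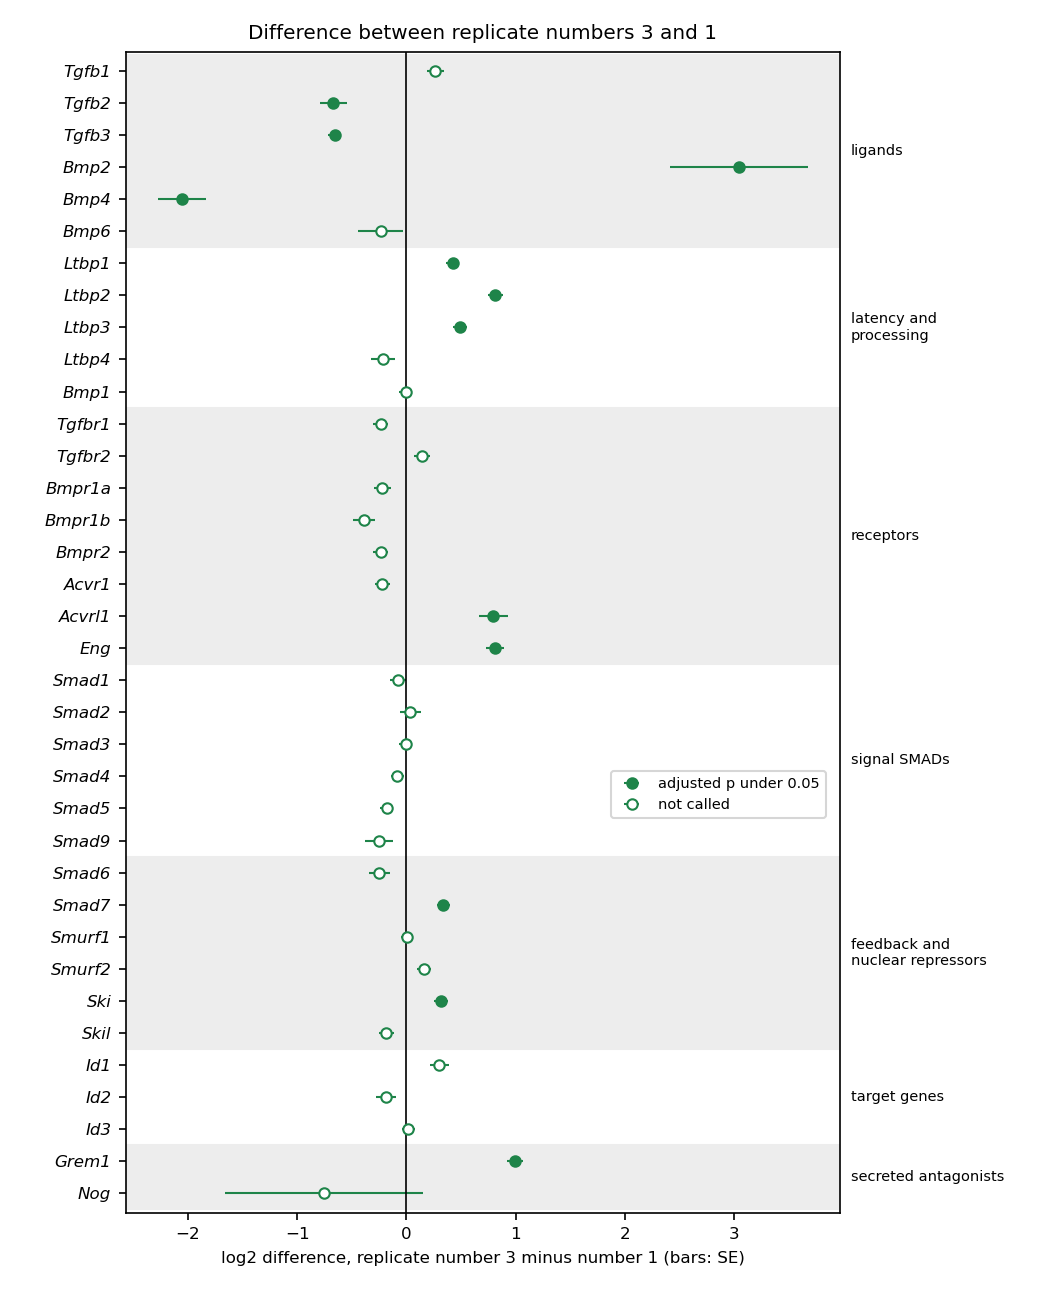
Log2 difference between replicate numbers 3 and 1, averaged over treatment, for each of the 36 genes with its standard error. Filled points are the 12 members called for replicate number. Bmp2 lies highest at 3.04 and Bmp4 lowest at -2.05, while the 6 signal SMADs lie between -0.25 and 0.04.

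Among the TGF-beta ligands, Tgfb1 and Tgfb3 were the abundant genes and their balance differed between replicate numbers. Values of a group are given for its libraries numbered 1, 2 and 3, in that order. Tgfb1, the most widely expressed isoform, was at 21.9, 27.1 and 28.8 FPKM in PS-MP libraries and 25.2, 27.1 and 27.8 FPKM in control libraries. The groups overlapped, at 25.9 ± 3.59 with PS-MP and 26.7 ± 1.35 in control (SD, n = 3 each), and replicate number was not called for Tgfb1 (adjusted p = 0.094). Tgfb3 (chromosome 12, 86103519 to 86125815, GRCm39, minus strand) was at 25.8, 19.9 and 16.8 FPKM with PS-MP and 27.4, 20.4 and 16.9 FPKM in control. It was highest in number 1 and lowest in number 3 in both groups, with a log2 difference of -0.66 ± 0.06 (SE) between numbers 3 and 1 (adjusted p = 0.002). Tgfb2 was far less abundant, at 2.59, 1.89 and 1.44 FPKM with PS-MP and 2.38, 2.04 and 1.70 FPKM in control, and was likewise lowest in number 3 (-0.67 ± 0.12, adjusted p = 0.023). The Tgfb2 call was lost in 5 of 13 alternatives, those without a filter, with 0.1 added to FPKM and without PS-MP 1, PS-MP 3 or control 1 (highest adjusted p = 0.136). Tgfb1 therefore held 43.6%, 55.5% and 61.2% of the FPKM of the 3 TGF-beta ligands in PS-MP libraries and 45.8%, 54.7% and 59.9% in control libraries. The sum of the 3 moved less, at 50.3, 48.9 and 47.1 FPKM with PS-MP and 55.0, 49.6 and 46.4 FPKM in control. Between treatments the log2 fold changes, with treatment as the only term, were -0.06 ± 0.11 for Tgfb1, -0.07 ± 0.23 for Tgfb2 and -0.07 ± 0.21 for Tgfb3 (SE). With the replicate number as a block they were -0.07 ± 0.06, -0.10 ± 0.10 and -0.07 ± 0.05, and none was called in either fit.

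The 3 BMP ligands among the members, Bmp2, Bmp4 and Bmp6, were at low levels. Bmp4, a ligand of BMP type I receptors (chromosome 14, 46620977 to 46628126, minus strand), was at 2.16, 0.686 and 0.511 FPKM in PS-MP libraries, from 370, 105 and 83 estimated counts, and at 1.97, 0.625 and 0.478 FPKM in control libraries, from 276, 102 and 72 estimated counts. Both number 1 libraries were high and the other 4 low, whatever the treatment: the number 3 mean was 0.494 FPKM and the number 1 mean 2.07 FPKM, a log2 difference of -2.05 ± 0.22 (adjusted p = 0.002). Between treatments the Bmp4 log2 fold change was 0.11 ± 0.69, and 0.10 ± 0.18 with the replicate number as a block. The surface epithelium markers were highest in the same libraries, and their part in the Bmp4 difference was not tested. Of Bmp4's exon bases, 31.1% also lie in exons of other annotated genes, on either strand. The sources used here do not say how strand was used in counting, so reads of those genes may be among its counts. The same limit holds for other members, with the largest share in Id2 (36.2%), then 17.3% in Ltbp4, 13.0% in Tgfb3 and 11.0% in Eng among others.

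Bmp2, the close relative of Bmp4, ran the other way. It was at 0.0589, 0.325 and 0.317 FPKM with PS-MP (16, 78 and 81 estimated counts) and 0.0668, 0.129 and 0.744 FPKM in control (15, 33 and 175 estimated counts). Number 1 was lowest in both groups, and the log2 difference between numbers 3 and 1 was 3.04 ± 0.63 (adjusted p = 0.037). Its PS-MP log2 fold change of -0.43 ± 0.95 was the lowest of the 36 and had the widest interval, -2.65 to 1.80. The Bmp2 replicate call was lost in 6 of the 12 alternatives that tested it, those without a filter, at 0.1 added to FPKM, in limma-voom and without PS-MP 1, control 1 or control 3. Bmp6, a ligand of the same branch, stayed between 0.621 and 0.905 FPKM with PS-MP and between 0.848 and 0.894 in control.

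Latency and processing genes included Ltbp2, the member with the highest FPKM in every library. LTBP2, unlike the other LTBPs, does not bind latent TGF-beta and is a structural protein of elastic fibres. Its gene (chromosome 12, 84829986 to 84923306, minus strand) was at 77.1, 110 and 146 FPKM in PS-MP libraries and 86.0, 116 and 139 FPKM in control libraries. The control range lay inside the PS-MP range (111 ± 34.7 with PS-MP and 114 ± 26.8 in control, SD), whereas numbers 3 and 1 differed by 0.81 ± 0.07 on the log2 scale (adjusted p = 0.001). Ltbp1, which tethers latent TGF-beta to the matrix, was at 24.8, 29.8 and 34.7 FPKM with PS-MP and 25.8, 28.0 and 33.3 FPKM in control (0.42 ± 0.06 between numbers 3 and 1, adjusted p = 0.009). Ltbp3, which binds all 3 latent isoforms, was at 24.4, 28.7 and 36.4 FPKM with PS-MP and 24.7, 27.7 and 32.6 FPKM in control (0.49 ± 0.07, adjusted p = 0.007). The calls for Ltbp1 and Ltbp3 were lost without PS-MP 1 (highest adjusted p of 0.067 and 0.056). All 3 were thus lowest in number 1 and highest in number 3 in each group. Ltbp4 at 4.46 to 6.57 FPKM and Bmp1, a protease that cleaves procollagen, LTBP1 and the BMP antagonist chordin, at 43.4 to 48.2 FPKM over all 6 libraries were not called for replicate number. Counted together, the 4 LTBP genes gave 132, 173 and 223 FPKM in PS-MP and 143, 176 and 210 FPKM in control libraries, of which Ltbp2 held 58.3% to 65.5% in PS-MP and 60.1% to 66.3% in control.

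The core TGF-beta receptors varied little. Tgfbr1, the type I kinase, was at 15.2, 14.5 and 12.4 FPKM with PS-MP and 14.4, 12.5 and 12.7 FPKM in control, a log2 fold change of 0.07 ± 0.10 that was among the 3 highest of the members. Tgfbr2, the type II kinase that binds the ligand, was at 13.7, 15.0 and 16.2 FPKM with PS-MP and 14.3, 13.4 and 14.8 FPKM in control (0.05 ± 0.08). Neither was called for replicate number.

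The BMP receptors included the smallest p-values for PS-MP. Bmpr1b, a BMP type I receptor known for its part in ovulation rate in sheep, was at 2.28, 1.89 and 1.70 FPKM in PS-MP libraries and 2.79, 2.22 and 2.18 FPKM in control libraries. PS-MP lay below control in each same-numbered pair, but the groups overlapped at the highest PS-MP library, and the log2 fold change was -0.31 ± 0.15 (unadjusted p = 0.078). With the replicate number as a block the change was -0.31 ± 0.08 (unadjusted p = 0.007), which the adjustment over all genes took to 0.884. Acvrl1, the type I receptor for BMP9 and BMP10 known from endothelium, was at 1.17, 1.63 and 2.25 FPKM with PS-MP and 1.60, 2.07 and 2.51 FPKM in control. It too was lower with PS-MP in all 3 pairs, at -0.31 ± 0.27 without and -0.34 ± 0.11 with the block (unadjusted p = 0.015, adjusted 0.884 with the block). These were the 2 members of 36 with an unadjusted p under 0.05 in the block fit, where 4.94% of all tested genes reached it. Over all members 9 of 36 were lower with PS-MP in all 3 pairs and 3 were higher, beside 13.3% and 14.6% of tested genes. Bmpr1a, the main BMP type I receptor, was at 16.4, 14.2 and 12.6 FPKM with PS-MP and 15.2, 13.8 and 14.5 FPKM in control (-0.03 ± 0.10), and Bmpr2, its type II partner, at 6.08, 5.70 and 4.96 FPKM with PS-MP and 6.54, 5.58 and 5.78 FPKM in control (-0.12 ± 0.10). Acvr1 ranged from 10.1 to 11.4 FPKM with PS-MP and from 9.60 to 11.7 in control.

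Endoglin and Acvrl1, which act together at the endothelial surface, shared a pattern over replicate numbers. It was not particular to them, since Ltbp1, Ltbp2, Ltbp3, Smad7, Ski and Grem1 had the same order of numbers in both groups. Eng, the co-receptor gene (chromosome 2, 32536607 to 32572670, plus strand), was at 19.6, 27.1 and 37.8 FPKM with PS-MP and 23.6, 27.8 and 37.6 FPKM in control. It was lowest in number 1 and highest in number 3 in both groups, with a log2 difference of 0.81 ± 0.08 (adjusted p = 0.002), and Acvrl1 differed by 0.80 ± 0.13 (adjusted p = 0.016). The Acvrl1 call was lost without a filter, with 0.1 added to FPKM and without PS-MP 1 or control 1, and Acvrl1 was not tested at 10 CPM. Defining endothelial markers were at or near 0: Pecam1 was at 0.0673 to 0.199 FPKM with PS-MP and 0.0600 to 0.0846 in control, and Vwf and Cdh5 were under 0.1 FPKM in every library. The 8 endothelial markers summed to 0.863 to 1.62 FPKM in PS-MP and 0.753 to 1.33 in control libraries, most of it from Esam. Single markers differed in order: Kdr was lowest in number 3 of both groups, and Pecam1 was highest there with PS-MP and lowest there in control. Their part in the Eng and Acvrl1 differences was not tested.

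The signal SMADs had the lowest median absolute difference between numbers 3 and 1 of the 7 roles (0.08 on the log2 scale), with none called for replicate number or treatment. Smad3 (chromosome 9, 63554049 to 63665276, minus strand) was the most abundant at 30.1, 30.1 and 30.6 FPKM with PS-MP and 29.3, 29.1 and 28.6 FPKM in control. It was the 1 member of 36 whose groups did not overlap in FPKM, where 6.45% of tested genes showed this, and FPKM sums were themselves higher in every PS-MP library. After TMM scaling its groups overlapped, with a log2 fold change of 0.04 ± 0.06. Smad4, the shared partner, followed at 22.8 to 26.2 FPKM over all libraries, then Smad5 at 8.20 to 10.1, Smad2 at 5.46 to 6.85, Smad1 at 5.78 to 6.38 and Smad9 at 1.35 to 1.81. The TGF-beta receptor SMADs (Smad2 and Smad3) summed to 36.5 to 36.7 FPKM with PS-MP and 34.6 to 35.4 in control. The BMP receptor SMADs (Smad1, Smad5 and Smad9) summed to 15.7 to 18.0 FPKM with PS-MP and 15.6 to 17.9 in control.

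Feedback genes split between the 2 inhibitory SMADs. Smad7, which recruits ubiquitin ligases to the TGF-beta receptor, was at 12.8, 14.4 and 16.3 FPKM with PS-MP and 13.6, 14.7 and 17.1 FPKM in control, and was called for replicate number (0.34 ± 0.06 between numbers 3 and 1, adjusted p = 0.021). Smad6, which acts mainly on BMP signals, was at 6.59, 5.70 and 5.25 FPKM with PS-MP and 6.15, 5.33 and 5.47 FPKM in control, with a difference of -0.25 ± 0.10 that was not called (adjusted p = 0.223). Smad7 thus stood highest, and Smad6 not highest, in number 3 of each group. Ski, a nuclear repressor of SMAD complexes, was at 23.8, 28.2 and 31.2 FPKM with PS-MP and 25.0, 27.8 and 29.7 FPKM in control (0.32 ± 0.06, adjusted p = 0.031). Its relative Skil, itself a TGF-beta target, ranged from 8.71 to 10.5 FPKM with PS-MP and 9.68 to 10.8 in control. The ubiquitin ligases Smurf1 (22.7 to 23.6 FPKM over all libraries) and Smurf2 (34.1 to 41.5) were not called. The calls for Smad7 and Ski were lost without a filter on low counts and without PS-MP 1 or control 1, and that for Ski also without PS-MP 2 or control 2.

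The Id genes, direct BMP-SMAD targets that encode inhibitors of basic helix-loop-helix factors, were expressed in every library, Id1 and Id3 at 48.6 FPKM or more. Id3 was at 76.0, 74.3 and 74.1 FPKM in PS-MP libraries and 70.6, 74.0 and 74.3 FPKM in control libraries, and replicate number was not called (adjusted p = 0.865). Id1 was at 48.6, 51.2 and 67.2 FPKM with PS-MP and 52.9, 49.1 and 58.1 FPKM in control, highest in number 3 of both groups but not called (0.30 ± 0.09, adjusted p = 0.080). Id2 was at 12.2, 9.64 and 10.3 FPKM with PS-MP and 12.6, 9.21 and 11.5 FPKM in control, lowest in number 2 of both groups (adjusted p = 0.066). Both lie near the threshold, since DESeq2 called each of them for replicate number. Between treatments the log2 fold changes were 0.04 ± 0.13 for Id1, -0.07 ± 0.14 for Id2 and 0.02 ± 0.06 for Id3.

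Of the secreted antagonists, Grem1 had the smallest adjusted p for replicate number of all 36 members. Gremlin 1 binds BMP2 and BMP4 and keeps them from their receptors, and it is a known product of cumulus granulosa cells. Its gene (chromosome 2, 113576509 to 113588991, minus strand) was at 38.0, 49.0 and 73.3 FPKM in PS-MP libraries and 38.7, 43.4 and 79.5 FPKM in control libraries. Number 3 was highest in both groups, with a log2 difference from number 1 of 0.99 ± 0.07 (adjusted p = 6.0e-04). Treatment gave -0.03 ± 0.32, and -0.01 ± 0.06 with the block. Grem1 and Bmp4 moved in opposite directions over the numbers, so that Grem1 FPKM per Bmp4 FPKM was 17.6, 71.5 and 143 with PS-MP and 19.6, 69.5 and 166 in control. Per summed FPKM of Bmp2, Bmp4 and Bmp6 the difference was smaller, at 12.3, 25.6 and 50.6 with PS-MP and 13.4, 26.4 and 38.4 in control. Nog, the other BMP antagonist, was barely detected, at 0.194, 0.143 and 0.224 FPKM with PS-MP and 0.220, 0.247 and 0.0307 FPKM in control (25, 17 and 28 against 24, 31 and 4 estimated counts), and its log2 fold change of 0.12 ± 0.68 gives no direction.

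**Figure D4:**
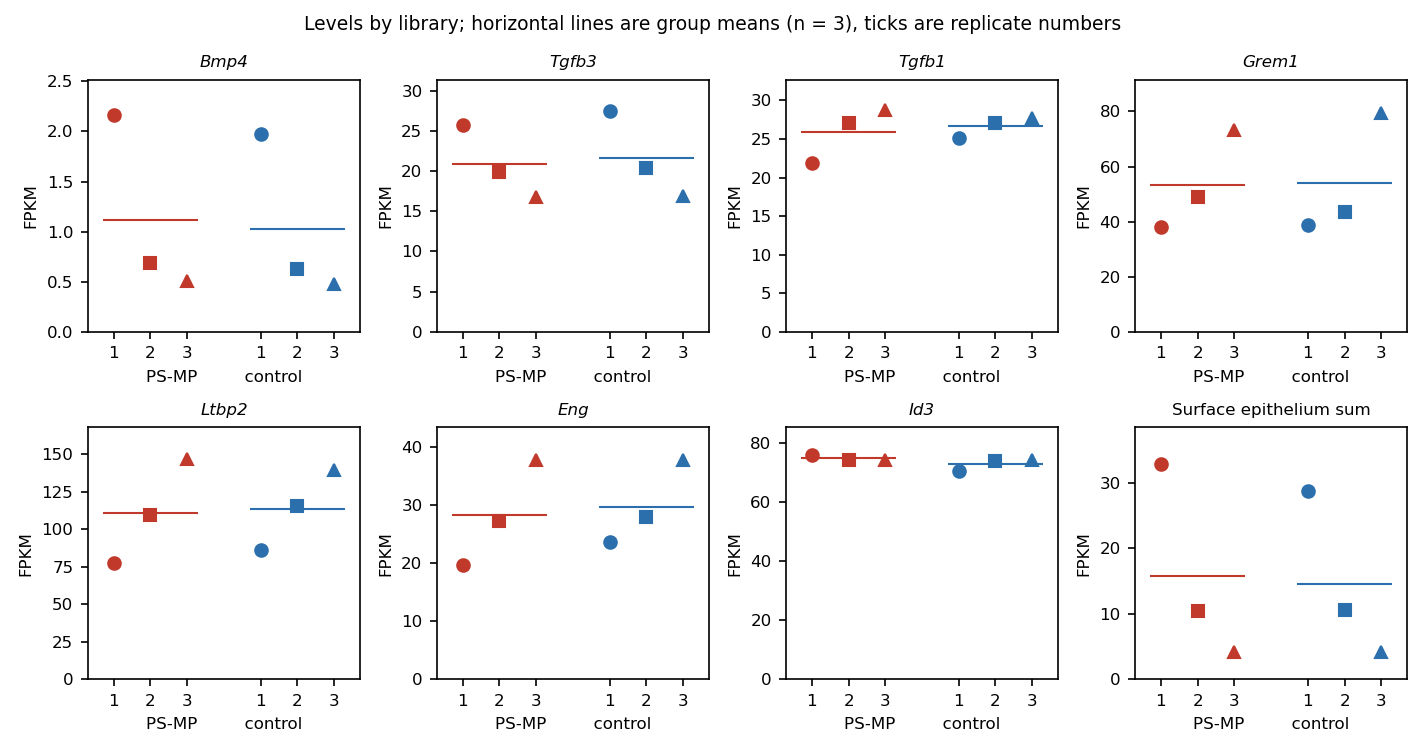
FPKM by library for 7 of the genes and for the sum of the 8 surface epithelium markers, with PS-MP left of control, ticks giving replicate numbers and horizontal lines the group means (n = 3). The same order of replicate numbers recurs in both groups for Bmp4, Tgfb3, Grem1, Ltbp2 and Eng, while Id3 stays between 70.6 and 76.0 FPKM.

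Promoter sequence was looked up because SMAD complexes bind short motifs near target genes and several members shared one order of replicate numbers. RefSeq promoters (from its GRCm38.p6 table, placed here in GRCm39 by exact match) were held for 26 of the 36 members. The 250 bases before the start site are shown for Bmp4, Grem1 and Eng, 3 of the 4 members with an entry whose replicate means differed most. The window of the other one, Ltbp2, runs into the gene as deposited. They lie at chr14:46628127-46628376 (minus strand) for Bmp4, chr2:113588994-113589243 (minus strand) for Grem1 and chr2:32536357-32536606 (plus strand) for Eng. Capitals mark the SMAD box CAGAC (or GTCTG, its reverse complement) and the palindromic GC-rich SMAD element GGCGCC.
Bmp4: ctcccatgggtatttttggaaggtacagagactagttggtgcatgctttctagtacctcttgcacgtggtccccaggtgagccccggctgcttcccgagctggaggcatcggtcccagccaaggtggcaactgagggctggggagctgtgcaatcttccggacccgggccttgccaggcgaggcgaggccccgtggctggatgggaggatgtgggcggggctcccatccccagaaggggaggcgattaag
Grem1: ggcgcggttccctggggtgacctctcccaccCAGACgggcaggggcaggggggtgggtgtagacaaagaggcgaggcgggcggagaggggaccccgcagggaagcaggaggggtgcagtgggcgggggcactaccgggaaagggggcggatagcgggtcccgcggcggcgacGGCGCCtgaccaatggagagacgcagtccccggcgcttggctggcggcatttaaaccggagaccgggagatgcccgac
Eng: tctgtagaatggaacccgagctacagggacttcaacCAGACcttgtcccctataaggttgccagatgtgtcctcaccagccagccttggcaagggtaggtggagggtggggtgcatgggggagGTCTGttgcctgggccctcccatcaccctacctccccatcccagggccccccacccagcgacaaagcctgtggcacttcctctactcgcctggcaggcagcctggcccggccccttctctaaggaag

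In these windows Bmp4 held neither motif, Grem1 held 1 SMAD box and 1 GC-rich element, which start 219 and 78 bases before the start site, and Eng held 2 SMAD boxes. CAGAC on either strand was in 6 of the 8 called members with a promoter and in 8 of the 18 others, beside 42.2% of 32851 RefSeq promoters. GGCGCC was in 2 of the 8 and 8 of the 18, beside 9.59% of promoters, and TATAAA in 1 of the 8 and 1 of the 18, beside 12.4%. The motifs did not overlap one another in the windows printed, and a member with several start sites was counted once if any window held the motif. The shares over RefSeq promoters count each window on its own, so such a member had more chances to hold a motif. A match of this length is a description of the letters and not of binding.

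Beyond the 36, 70 of 73 other listed genes of the pathway were in the table and 60 were tested. None was called for PS-MP, with 18 positive and 42 negative log2 fold changes and a median of -0.04, and 1 reached an unadjusted p under 0.05. This was Amh, a hormone of growing follicles, at 0.103, 0.106 and 0.0554 FPKM with PS-MP and 0.186, 0.215 and 0.253 FPKM in control, named after its values were seen, and in the fit with the block its unadjusted p was 0.059. In that fit 8 of the 60 were under 0.05, against 4.94% of all tested genes, but none was called. In all 3 pairs 19 were lower and 7 higher with PS-MP, beside 13.3% and 14.6% of tested genes. Replicate number was called for 26 of the 60, beside 14.9% of all tested genes. Among genes with a mean of at least 10 CPM, 1991 of 9324 were called. Of the 26, 9 were higher and 17 lower in number 3 than in number 1. Among TGF-beta targets 10 of 14 were called, and 8 of these were lower in number 3. Col1a1, a fibrillar collagen chain, was at 783, 601 and 469 FPKM with PS-MP and 968, 645 and 459 FPKM in control (-0.91 ± 0.08, adjusted p = 0.001). The cell cycle inhibitors Cdkn1a and Cdkn2b were the 2 higher in number 3, at 0.56 ± 0.06 and 0.65 ± 0.07 on the log2 scale. Some of these targets are also markers of stroma or smooth muscle, and Col1a1, Acta2 and Tagln make up most of those marker sums. Other markers of the same lists differed among themselves. Des and Cnn1, of muscle, were lower in number 3 (-0.64 and -0.73 on the log2 scale, adjusted p = 0.001 and 6.9e-04), and Dcn, of stroma, was higher (0.65, adjusted p = 0.018). Pdgfra, at 14.6 to 15.3 FPKM with PS-MP and 13.8 to 15.3 in control, and Pdgfrb, at 37.0 to 38.1 with PS-MP and 38.9 to 42.8 in control, were not called. The part of those cells was not tested.

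Some other ligands and antagonists differed between replicate numbers too. Gdf15, a stress-induced ligand, was at 10.3, 21.9 and 40.9 FPKM with PS-MP and 8.86, 25.5 and 39.1 FPKM in control, a log2 difference of 2.06 ± 0.11 between numbers 3 and 1 (adjusted p = 2.3e-04). Gdf6, a BMP-type ligand, was at 18.8, 14.3 and 7.25 FPKM with PS-MP and 21.2, 15.1 and 9.35 FPKM in control (-1.28 ± 0.08, adjusted p = 3.9e-04). Fst, the activin antagonist follistatin, was at 7.48, 4.31 and 3.25 FPKM with PS-MP and 8.50, 4.96 and 3.50 FPKM in control (-1.24 ± 0.09, adjusted p = 5.9e-04). In each case the order of the 3 numbers was alike in both groups and the groups overlapped. Of the called genes, 5 were among 11 tested ligands, 7 among 12 antagonists, 2 among 10 regulators, 2 among 8 BMP targets and 0 among 5 receptors. Over all tested genes 14.9% were called, and 1991 of the 9324 with a mean of at least 10 CPM.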

How the data were processed

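RNA from 6 cultures (3 PS-MP, 3 control) was sequenced from poly(A)-selected RNA in dUTP libraries, per the labels' protocols. Per the submitters' processing notes, the tools were cutadapt 1.9, FastQC, HISAT2 2.2.1 and StringTie 2.1.6, with GRCm39; no source used here names the annotation version. The authors deposited 2 values for each gene and library, an FPKM and a count, as named per the file headers. The deposited counts are whole but pile up at multiples of 4 (6687 values of 4, 3161 of 3 and 2040 of 5), so they were handled as estimated counts, which are not read numbers; rounding altered none. FPKM sums differed between libraries, so tests used TMM-scaled counts and FPKM serve as levels. Columns were matched to samples by name, and 12 further per-library columns of the same sheet under similar names were not used; every value is that of the library so labelled.

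Genes were tested with edgeR 4.0.16 in R 4.3.3 (TMM, filterByExpr, quasi-likelihood, two-sided) over 6 libraries, with Benjamini-Hochberg adjustment over 17186 genes. Treatment was the only term; calls needed 1.5-fold or more and an adjusted p below 0.05, the thresholds in the labels' design text. Replicate number was tested as 2 terms beside treatment (2 residual degrees of freedom) at an adjusted p under 0.05. Deviations from the group means over 9324 genes correlated at 0.801, 0.145 and 0.603 between same-numbered libraries, all above 0.1. The numbers were therefore taken as pairs in a second fit, with the replicate number as a block. The labels do not state this pairing. It was weak for number 2, since PS-MP 2 with control 3 reached 0.361 and PS-MP 3 with control 2 reached 0.162. The fit with treatment as the only term leaves this pairing out. Libraries of a group differed by more than sampling noise (the chi-square statistic was at least 34.5 times its degrees of freedom). Alternatives used DESeq2 1.42.0 and limma 3.58.1. The fits were tested on simulated data.

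Coordinates are those of the deposited table (GRCm39), and exon overlap came from GENCODE M39. Members given per library are those called in either test, 18 fixed genes, the 3 highest and 3 lowest PS-MP fold changes and the 5 largest ratios between replicate means; other pathway genes are named if called or abundant. One gene among these is not reported here. The members, the lists and the test of replicate number were chosen with earlier results of these data known.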

Additional observations from a re-analysis of the deposited data

How the results depend on the processing

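No member was called for PS-MP under any of the 18 alternatives run, and the members' median log2 fold change stayed negative, between -0.05 and -0.0028, in all of them; 25 of the 36 uncalled fold changes had the other sign under some alternative. Over all genes, PS-MP calls numbered 1 in DESeq2, 1 with the replicate block, and 1, 15 and 9 with the replicate block without replicate 1, 2 or 3, and 0 to 1 when single libraries were left out. Taking the pairing into account changed no other call. For replicate number, calls were 1083 genes and 7 members without a filter, 1663 genes with 0.1 added to FPKM, and 901 to 2811 genes and 5 to 16 members when single libraries were left out, where 1 number keeps a lone library assumed to vary like the others. The cause was not tested. Dividing counts by 4 left 35 members tested and 14 called, beside 20.7% of 14217 genes. Bmp2, Bmp6 and Nog stayed under 1 FPKM and are limited by depth. With treatment alone, the intervals of Bmp2, Bmp4, Grem1 and Nog reached past 1.5-fold in both directions. Groups of 3 are too small for an outlier test.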
